A study of Mus musculus with 10 samples.

Results

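Neutrophil granule and alarmin genes were followed in sorted mouse B cells. The group holds 10 genes, S100a8, S100a9, Lcn2, Ltf, Camp, Ngp, Chil3, Mmp8, Mmp9 and Hp, of 18194 genes that have a probe set assigned to 1 symbol, and all 10 were among the 17204 genes tested, Hp only through its GC arrays. They were picked because they were higher in germinal centre (GC) samples than in naive samples, so the GC minus naive values of these genes are a description and carry no test. Where several probe sets read a gene, the brightest on average was used.

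Expression was measured on 10 Affymetrix mouse whole-genome oligonucleotide arrays, 1 per sample. The naive group (n = 4) holds splenic B cells of unimmunized Balb/c mice, for which no transgene is named. The GC B1-8 group (n = 3) comes from mice with the VH186.2 heavy chain transgene and the GC V23 group (n = 3) from mice with the V23 transgene, and both lines are on the Balb/c background and carry a deletion of the endogenous JH locus. Both lines received 50 µg of NP-CGG, a hapten on a carrier protein, in alum, and λ+ PNA+ B220+ cells were sorted on day 14. Immunization, transgene, JH deletion and sorting stain therefore all differ between GC and naive samples and cannot be told apart. The labels name no stain against granulocytes and do not tie replicates to separate animals, so the p-values may reflect no more than technical spread among these 10 samples.

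Neutrophils store antimicrobial proteins in granules that are filled in turn while the cell matures in the bone marrow. Azurophil granules form first and hold serine proteases and myeloperoxidase. Specific granules follow, with lactoferrin, cathelicidin and lipocalin, and gelatinase granules form last; the calcium-binding S100A8 and S100A9 proteins lie in the cytosol and act as alarmins when released. B cells are not a usual source of these proteins.

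The genes lie on 4 chromosomes in GRCm38.p6. S100a8 (chr3:90669071-90670034) and S100a9 (chr3:90692630-90695721) are neighbours on chromosome 3, which also holds Chil3 (chr3:106147554-106167564). Lcn2 (chr2:32384637-32387739) and Mmp9 (chr2:164940326-164955850) are on chromosome 2 and Hp (chr8:109575128-109579172) is on chromosome 8. Chromosome 9 holds Mmp8 (chr9:7558429-7568486), Camp (chr9:109847377-109849456), Ngp (chr9:110419808-110423012) and Ltf (chr9:111019292-111042766). RefSeq promoters (250 bases before to 50 bases after the annotated start) were matched for 8 of the 10 genes, Mmp9 and Hp being without an entry. They were searched on both strands for the letters TTNCNNAA, a loose form of the site of C/EBP factors, which drive granule genes in myeloid cells, for GAGGAA, a core of the site of PU.1, a regulator of myeloid and B cells, and for TATAAA, the TATA box. The first was in 7 of 8 of these promoters and in 40.7% of all 32851 promoters of this length, the second in 4 of 8 and 28.3%, and the third in 4 of 8 and 13.6%. A match of letters is a description, not a site. The promoters of the alarmin pair, of Lcn2, the gene with the largest difference below, and of Ngp, with 3 matches to the C/EBP letters, are shown as examples. Ltf and Camp moved with the group across the arrays as closely and are not shown. The Camp promoter had 0 matches to any of these letters. Capitals mark the matches, and in S100a8 a PU.1 match runs directly into the TATA match.
S100a8 (chr3:90668821-90669120, plus strand): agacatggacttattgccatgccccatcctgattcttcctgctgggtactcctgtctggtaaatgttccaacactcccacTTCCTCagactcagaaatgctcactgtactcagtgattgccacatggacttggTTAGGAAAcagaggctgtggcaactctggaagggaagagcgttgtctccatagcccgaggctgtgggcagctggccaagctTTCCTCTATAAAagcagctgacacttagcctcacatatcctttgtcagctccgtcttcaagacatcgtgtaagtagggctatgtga
S100a9 (chr3:90695672-90695971, minus strand): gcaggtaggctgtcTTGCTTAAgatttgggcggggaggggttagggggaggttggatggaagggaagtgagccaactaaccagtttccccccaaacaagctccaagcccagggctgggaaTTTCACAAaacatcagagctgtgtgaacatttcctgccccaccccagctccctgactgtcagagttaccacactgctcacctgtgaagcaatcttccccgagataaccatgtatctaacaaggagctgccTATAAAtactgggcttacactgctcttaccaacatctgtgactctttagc
Lcn2 (chr2:32387690-32387989, minus strand): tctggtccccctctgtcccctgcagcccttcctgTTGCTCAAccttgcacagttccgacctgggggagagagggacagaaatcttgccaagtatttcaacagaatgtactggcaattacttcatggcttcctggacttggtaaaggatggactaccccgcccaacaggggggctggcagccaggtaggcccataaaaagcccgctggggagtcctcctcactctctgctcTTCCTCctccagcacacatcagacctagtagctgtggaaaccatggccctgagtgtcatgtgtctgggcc
Ngp (chr9:110419558-110419857, plus strand): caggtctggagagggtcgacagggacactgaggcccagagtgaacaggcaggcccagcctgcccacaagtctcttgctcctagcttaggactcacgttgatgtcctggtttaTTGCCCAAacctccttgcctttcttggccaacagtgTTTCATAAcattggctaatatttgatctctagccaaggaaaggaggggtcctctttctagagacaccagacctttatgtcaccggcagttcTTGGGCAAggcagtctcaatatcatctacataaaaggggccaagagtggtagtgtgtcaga

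The deposited values are log2 signals, and levels of different probe sets are not comparable with each other. S100a8 (1419394_s_at) encodes one chain of the alarmin calprotectin. Its log2 signal was 10.32, 10.74, 9.87 and 12.15 in naive replicates 1 to 4, 14.16, 14.08 and 14.01 in B1-8 replicates 1 to 3 and 13.81, 13.39 and 13.84 in V23 replicates 1 to 3. The groups did not overlap, and naive replicate 4 stood between the other naive arrays and the GC arrays. The GC minus naive difference of the means was 3.11 ± 0.39 on the log2 scale (SE of the fit), or 8.65-fold. S100a9 (1448756_at), its partner chain, read 9.79, 10.08, 9.40 and 11.88 in naive, 13.97, 13.96 and 13.85 in B1-8 and 13.69, 13.35 and 13.84 in V23 arrays, in replicate order. It had the same order of arrays at the extremes, with naive replicate 3 lowest and naive replicate 4 highest of the naive arrays, and a difference of 3.49 ± 0.43.

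Among the specific granule genes, Lcn2 (1427747_a_at) encodes lipocalin 2, which binds bacterial iron carriers. Its values were 7.11, 7.12, 6.02 and 9.41 in naive, 12.20, 12.48 and 12.38 in B1-8 and 11.92, 11.49 and 12.23 in V23 arrays. The difference of 4.70 ± 0.57 (26-fold) was the largest of the 10 genes, and the naive arrays spread widely, with an SD of 1.43. Ltf (1450009_at), lactoferrin, which binds iron, read 7.39, 7.60, 6.96 and 9.10 in naive, 11.74, 11.78 and 11.80 in B1-8 and 11.57, 10.72 and 11.84 in V23 arrays. The 3 B1-8 arrays were almost equal (SD 0.03) while V23 replicate 2 lay below the other GC arrays, and the difference from naive was 3.81 ± 0.41. Camp (1419691_at) encodes the cathelicidin antimicrobial peptide. Its values were 7.92, 8.13, 7.05 and 9.51 in naive, 12.35, 12.30 and 12.53 in B1-8 and 11.99, 11.36 and 12.44 in V23 arrays, a difference of 4.01 ± 0.43. Ngp (1418722_at), neutrophilic granule protein, which belongs to the cathelicidin and cystatin superfamily, read 9.88, 10.02, 9.23 and 11.70 in naive, 13.68, 13.73 and 13.70 in B1-8 and 13.45, 13.13 and 13.55 in V23 arrays. Its B1-8 arrays were nearly equal, and its difference was 3.33 ± 0.41.

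Mmp8 (1449366_at) encodes neutrophil collagenase and Mmp9 (1416298_at) gelatinase B of the last granules. Mmp8 read 5.76, 6.13, 6.05 and 6.76 in naive, 8.53, 8.62 and 8.49 in B1-8 and 8.14, 7.13 and 8.66 in V23 arrays, and its GC minus naive difference was 2.09 ± 0.30. V23 replicate 2 came within 0.37 of naive replicate 4, the narrowest gap between the groups among the 10 genes. Mmp9 read 6.67, 6.44, 6.63 and 7.64 in naive, 8.65, 8.67 and 9.07 in B1-8 and 8.86, 8.57 and 9.02 in V23 arrays. Its difference of 1.96 ± 0.24 (3.9-fold) was the smallest of the 10. A further Mmp9 probe set (1448291_at) gave 3.00, from 4.57 in naive to 7.92 in B1-8 and 7.21 in V23 arrays on average, and the mean of both probe sets gave 2.48. Hp (1448881_at), haptoglobin, which binds free haemoglobin, read 3.83, 3.32, 3.38 and 5.42 in naive, 8.56, 8.61 and 8.81 in B1-8 and 8.89, 7.69 and 9.09 in V23 arrays. Naive replicates 1 to 3 lay below log2 4, where values carry little order, and with values raised to 4 its difference fell from 4.62 ± 0.45 to at least 4.25. Chil3 (1419764_at), a chitinase-like secreted protein of neutrophils and macrophages, read 6.59, 6.54, 6.22 and 8.54 in naive, 10.66, 10.66 and 10.88 in B1-8 and 10.23, 10.06 and 11.08 in V23 arrays, a difference of 3.62 ± 0.45. A probe set shared by Chil3 and Chil4 gave 2.42, and Chil4's own probe set, at 0.30 ± 0.16, did not pass limma's test (adjusted p = 0.165).

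**Figure D1:**
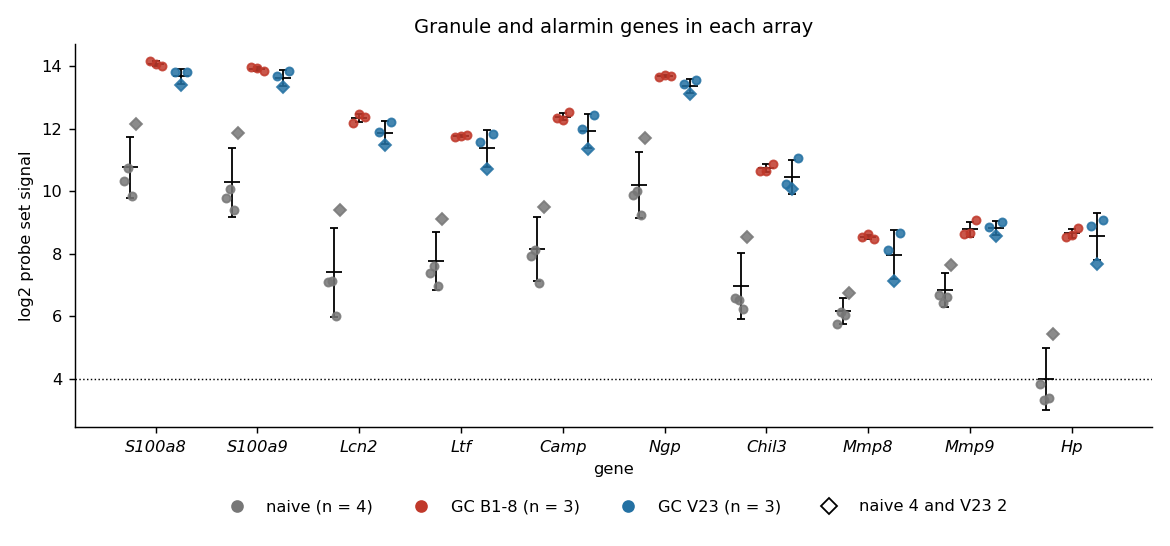
Log2 probe set signal (vertical axis) of the 10 genes (horizontal axis) in each array, with naive, GC B1-8 and GC V23 samples as coloured points, the group mean and SD as black bars, and the dotted line at log2 4. Diamonds mark naive replicate 4, the highest naive array, and V23 replicate 2, the lowest GC array, in all 10 genes.

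In all 10 genes every GC array lay above every naive array, a separation that 17% of all tested genes show; since the genes were picked on this contrast, nothing is read from that. Their GC minus naive differences ranged from 1.96 to 4.70 with a median of 3.55, beside a median of 0.06 over all tested genes. B1-8 minus naive ran from 1.95 (Mmp9) to 4.93 (Lcn2) and V23 minus naive from 1.80 (Mmp8) to 4.57 (Hp); both use the same 4 naive arrays. With values raised to log2 4, V23 minus naive was below that of Lcn2 (4.46) for Hp, so that the order of these genes rests on values below that level. With the log2 means unlogged, so as a ratio of geometric means, naive signal was 3.85% of GC signal for Lcn2 and 11.6% for S100a8. In such bulk samples, fewer cells of a type and less RNA per cell cannot be told apart.

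The arrays within a group differed in the same way for most of these genes, a pattern that the difference between the group means does not fix. Naive replicate 4 was the highest naive array in 10 of 10 genes, beside 37.6% of all tested genes, and V23 replicate 2 was the lowest of the 6 GC arrays in 10 of 10, beside 15.5%. Naive replicate 3 was the lowest naive array in 7 of 10, beside 26.7%. Folds and percentages in this paragraph refer to geometric means, that is, unlogged means of log2 values. Lcn2 signal was 6.33-fold higher in naive replicate 4 than in the mean of the other naive arrays. S100a9 signal was 4.36-fold, Ngp signal 3.96-fold and Mmp8 signal 1.72-fold higher, the lowest of the 10. Naive replicate 4 thus had 15.4% of the mean GC signal for Lcn2 and 30% for S100a8, against 2.43% and 8.4% in the other naive arrays. Without that array the GC minus naive differences ran from 2.23 to 5.36. V23 replicate 2 read between 1.29-fold (Mmp9) and 2.46-fold (Hp) below the mean of the other V23 arrays. The 3 B1-8 arrays differed little, with SDs between 0.03 and 0.24.

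After the mean of each group was subtracted, the genes correlated with each other over the 10 arrays with a median r of 0.92 over 45 pairs, from 0.61 for Mmp8 with Ngp to 0.99. With the mean of the other 9 genes, r was 0.99 for Ltf, 0.97 for S100a9, Ngp, Lcn2 and Camp, 0.89 for Mmp9 and 0.71 for Mmp8. These values describe 10 arrays that share 3 group means and in which naive replicates 4 and 3 and V23 replicates 2 and 3 lay farthest from their group mean, at 1.35, −0.78, −0.48 and 0.39 for the mean of the 10 genes. Of 12826 other genes with a mean log2 signal of at least 6, 4.02% correlated with the 10-gene mean at least as well as Mmp8 with the mean of the others, and 12 of 29 such other neutrophil genes did (41.4%). The 10 other genes with the highest r were Mcph1, Cd177, Slfn4, Fam3c, Lyz2, Ifitm6, Ifitm1, Trim36, Ddias and Lzts2, from 0.98 to 0.94. Cd177, Lyz2 and Ifitm6 are in the neutrophil lists below. Fam3c and Trim36 were not higher in GC arrays, at −0.15 ± 0.10 (adjusted p = 0.259) and −0.81 ± 0.13 (adjusted p = 0.00115, limma) for GC minus naive.

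**Figure D2:**
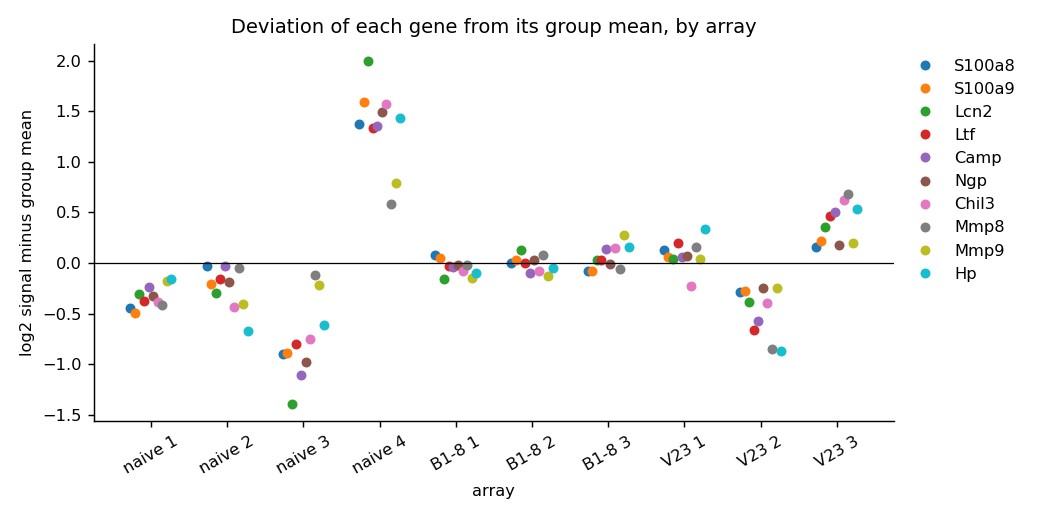
Log2 signal of each of the 10 genes minus its group mean (vertical axis) in each array (horizontal axis), 1 coloured point per gene. Naive replicate 4 lies above 0 and V23 replicate 2 below 0 for every gene, and the B1-8 arrays lie near 0.

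Array measures moved with these values in part. The 3′ minus 5′ log2 difference of the Actb control probe sets, a measure of RNA quality, was 1.46 ± 0.17 (SD, n = 4) in naive, 0.98 ± 0.20 (n = 3) in B1-8 and 0.78 ± 0.08 (n = 3) in V23 arrays, with no overlap between naive and GC arrays. It was lowest among naive arrays in replicate 4 (1.27) and highest among V23 arrays in replicate 2 (0.87). The same measure on the Gapdh control probe sets was also lowest among naive arrays in replicate 4 (0.31), but there naive and GC arrays overlapped, with B1-8 replicate 1 at 0.41, and V23 replicate 2 was the lowest V23 array (−0.03). Array medians were 6.81 to 7.04 in naive arrays, with replicate 4 highest, and at most 6.85 in GC arrays. Their part in the results was not tested.

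The comparison of the GC lines was not used to pick the genes and was tested. The B1-8 mean was above the V23 mean in 9 of 10 genes, beside 50.9% of all tested genes, and 0 of 10 passed limma's test with Benjamini-Hochberg adjustment over 17204 genes, where 0.0233% of all genes passed. Of all genes 0.00581% were called higher and 0.0174% lower in B1-8. At an unadjusted p under 0.05 it was also 0 of 10, where 4.78% of all genes were higher in B1-8. The largest difference was that of Mmp8, 0.57 ± 0.38 (adjusted p = 0.777, 95% interval −0.30 to 1.43), followed by Lcn2 at 0.47 ± 0.71 (interval −1.16 to 2.10) and Camp at 0.46 ± 0.55 (interval −0.79 to 1.71). S100a8 differed by 0.40 ± 0.50 (interval −0.73 to 1.53) and Mmp9, the 1 gene with a lower B1-8 mean, by −0.03 ± 0.30 (interval −0.72 to 0.66; 0.34 with the mean of its probe sets). The intervals reach beyond a 2-fold difference in 9 genes and do not show that the lines are alike. Without V23 replicate 2 the differences ran from −0.33 (Hp) to 0.28 (Lcn2), and the mean of B1-8 was then below that of V23 for Hp as well as Mmp9.

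**Figure D3:**
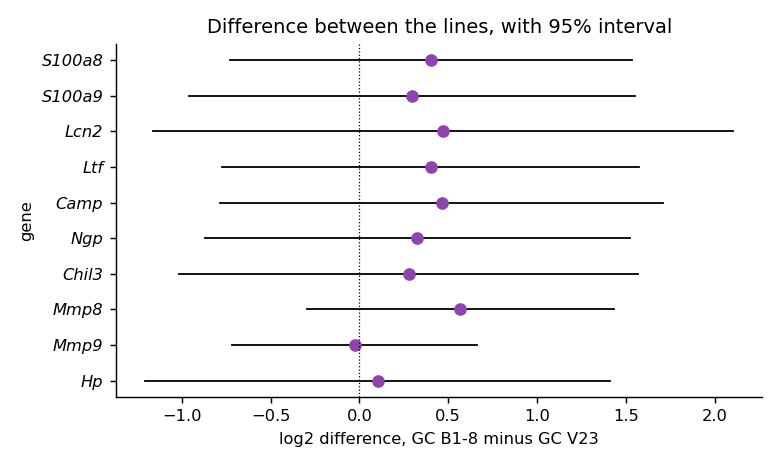
Log2 difference of GC B1-8 minus GC V23 (horizontal axis) for the 10 genes (vertical axis), with points for the estimate and lines for the 95% interval of the limma fit. Every interval includes 0, and 9 of 10 points lie to the right of it.

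Other neutrophil genes were listed by compartment, and 37 of 46 were tested. This list and those below were chosen with earlier results of these data known. Their counts and adjusted p-values are therefore not independent of those results. Of these 22 rose in GC arrays and 7 fell, 59.5% and 18.9%, beside 20.5% and 21% of all tested genes; the median difference was 1.10 against 0.06 for all genes. Of the 22 that rose, 20 had all GC arrays above all naive arrays, beside 17% of all tested genes. This separation adds little, since these genes were already called higher. In 18 of the 22 naive replicate 4 was the highest naive array, beside 37.6% of all tested genes. Ctsg, Padi4, Cxcr2, Stfa3 and Hdc passed the filter on low values only through the GC arrays, where they are high. The filter thus favoured a rise in these genes. Without these 5, 17 of 32 rose and 7 fell, 53.1% and 21.9%, beside 21.1% and 22.7% of the 15545 genes above log2 4 on at least 3 arrays of naive and of GC samples, with medians of 0.87 and 0.03; this count was added after the values were seen. With values raised to log2 4, Stfa3 lost its call (0.82, limma adjusted p = 0.282). In B1-8 against naive 21 rose and 4 fell (16.4% and 17.3% of all genes), and in V23 against naive 22 rose and 8 fell (18.2% and 19.7%). Between the lines 0 of 37 passed by limma, beside 0.0233% of all genes, and 4 were higher in B1-8 at an unadjusted p under 0.05 (Pglyrp1, Cybb, Adam8 and Cd300lf), beside 4.78% of all genes.

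Of 6 genes listed with the azurophil granules 4 rose and 1 fell, 66.7% and 16.7% beside 20.5% and 21% of all tested genes. Beside granule proteins this list holds the progenitor gene Ms4a3, which was not called, and the elastase inhibitor Serpinb1a, which fell. The 4 include Ctsg, kept by the filter only through its GC arrays. Mpo, myeloperoxidase, went from 6.82 ± 0.62 in naive (SD, n = 4) to 8.87 ± 0.51 in B1-8 and 9.01 ± 0.49 in V23 arrays (n = 3 each), a rise of 2.12 ± 0.33 (limma adjusted p = 0.000907). Elane, neutrophil elastase, rose by 1.58 ± 0.34 (adjusted p = 0.0053) and the protease Prtn3 by 1.93 ± 0.31 (adjusted p = 0.00115). Ctsg, cathepsin G, read between 1.81 and 2.24 in naive arrays, all below log2 4, and between 5.25 and 7.29 in GC arrays. With values raised to 4 its difference was at least 2.38, and no test is given since the filter kept it only for its GC values. Ms4a3 of granulocyte progenitors was at 0.26 ± 0.12 (adjusted p = 0.106; 0.0199 after median centring and 0.00261 after quantile normalization). Serpinb1a, an inhibitor of elastase, was at 12.58 ± 0.12 in naive arrays, and changed by −2.62 ± 0.18 (adjusted p = 9.91e-06).

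Of 12 genes of other granules and the oxidase 7 rose and 2 fell, 58.3% and 16.7% beside 20.5% and 21% of all tested genes. The 7 include Padi4, kept by the filter only through its GC arrays. Cd177, a neutrophil surface and granule protein, read 5.97, 6.19, 5.12 and 7.60 in naive arrays and between 9.04 and 9.98 in GC arrays, and rose by 3.44 ± 0.43 (limma adjusted p = 0.000263). Naive replicate 3 was its lowest and naive replicate 4 its highest naive array, as in 7 of the 10 genes. Olfm4, olfactomedin 4, rose by 3.11 ± 0.32 (adjusted p = 8.13e-05) and Slpi, a secreted protease inhibitor, by 2.51 ± 0.25 (adjusted p = 7.93e-05). Lyz2, lysozyme of neutrophils and macrophages, rose by 1.83 ± 0.37 (adjusted p = 0.00371). The 2 that fell were Cybb, the oxidase chain that B cells also make, at −0.75 ± 0.08 (adjusted p = 0.000136) from 13.07 in naive arrays, and Pglyrp1, a peptidoglycan recognition protein, at −1.14 ± 0.16 (adjusted p = 0.000482).

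Of 11 surface proteins 6 rose and 3 fell, 54.5% and 27.3% beside 20.5% and 21% of all tested genes. The 6 include Cxcr2, kept by the filter only through its GC arrays. Cxcr2, the chemokine receptor of mature neutrophils, read from 3.51 to 4.93 in naive and from 4.82 to 7.26 in GC arrays, which overlapped; 3 of its 4 naive arrays lay below log2 4, and with values raised to 4 its difference was 1.60. Csf3r, the receptor for the granulocyte growth factor G-CSF, rose by 1.01 ± 0.18 (limma adjusted p = 0.00174), the formyl peptide receptor Fpr2 by 1.59 ± 0.29 (adjusted p = 0.00208) and the integrin chain Itgam by 0.93 ± 0.18 (adjusted p = 0.00281). Ccr1, a chemokine receptor, differed by −3.32 ± 0.75 (adjusted p = 0.00695, and 0.0702 when naive replicates 2 and 4 were omitted) and Trem1, an activating receptor, by −1.22 ± 0.19 (adjusted p = 0.001; 0.284 when its probe sets were averaged). Of 8 cytosolic and other genes 5 rose and 1 fell, 62.5% and 12.5% beside 20.5% and 21% of all tested genes. The 5 include Stfa3 and Hdc, kept by the filter only through their GC arrays. Ifitm6 rose by 2.74 ± 0.28 (limma adjusted p = 8.84e-05) and the cystatin-like Stfa2l1 by 1.78 ± 0.31 (adjusted p = 0.00178). Ly6g and Retnlg, further defining neutrophil genes, were not analysed here.

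**Figure D4:**
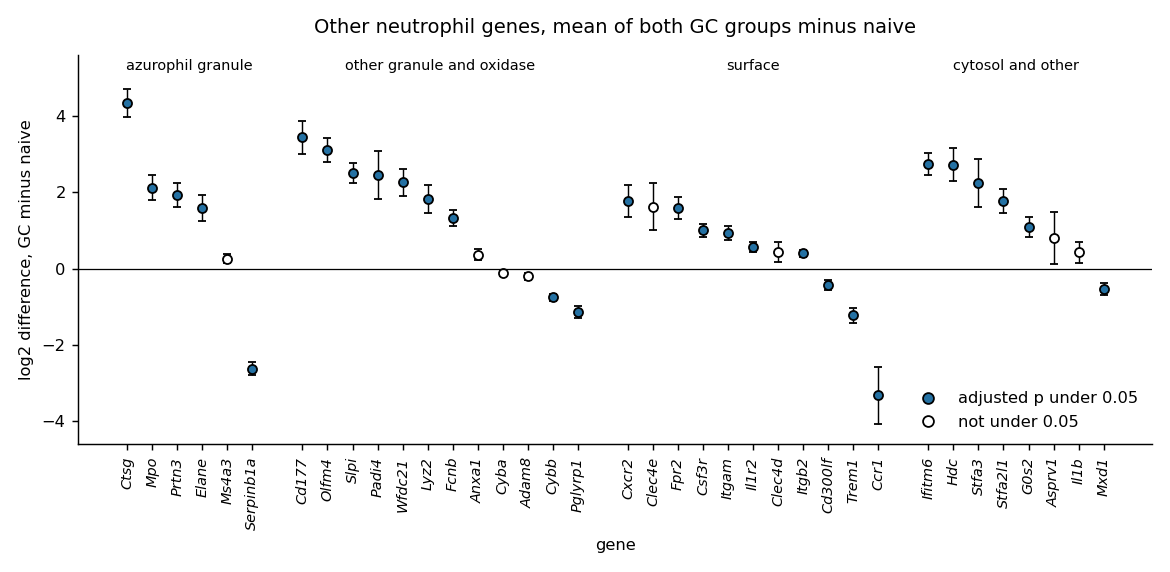
Log2 difference of the mean of both GC groups minus naive (vertical axis) for 37 other neutrophil genes (horizontal axis) by compartment, with the SE of the fit as bars; filled points passed at an adjusted p under 0.05. Of the 37 genes 22 rose, 7 fell and 8 did not pass. The 22 include Ctsg, Padi4, Cxcr2, Stfa3 and Hdc, kept by the filter on low values only through the GC arrays.

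Transcription factors and receptors of the granulocyte line went both ways, with 3 of 7 higher and 1 lower, 42.9% and 14.3% beside 20.5% and 21% of all tested genes. Gfi1, a repressor needed for neutrophil formation and also made by lymphocytes, rose by 1.21 ± 0.23 (limma adjusted p = 0.00303), Spi1, which encodes PU.1 of myeloid and B cells, by 0.56 ± 0.08 (adjusted p = 0.000603) and Cebpd, a C/EBP factor, by 1.55 ± 0.39 (adjusted p = 0.0122). Cebpa, needed for granulocyte progenitors, was at 1.15 ± 0.46 (adjusted p = 0.0757, and 0.0485 with median centring). Cebpb, a further C/EBP factor, had the other sign, at −0.26 ± 0.11 (adjusted p = 0.0848, and 0.0465 without V23 replicate 1). Csf2rb, a shared chain of cytokine receptors, changed by −2.60 ± 0.16 (adjusted p = 6.66e-06). Cebpe was not analysed here.

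Of 16 receptors, inhibitors and relatives of the granule and alarmin proteins 2 rose and 4 fell, 12.5% and 25% beside 20.5% and 21% of all tested genes, with a median of −0.09. Tlr4, a receptor for S100A8 and S100A9, was at 0.00 ± 0.14 (limma adjusted p = 0.993), and Timp1, an inhibitor of Mmp9, at 0.29 ± 0.31 (adjusted p = 0.502). Itgb1 rose by 0.60 ± 0.10 (limma adjusted p = 0.00165, and 0.326 with its probe sets averaged). Ager changed by −0.82 ± 0.28 (limma adjusted p = 0.0432). Its call was lost in many settings, such as median centring (adjusted p = 0.0857) and without naive replicate 2 (0.118). Of 6 other S100 genes among the relatives and neighbours, S100a1 (−0.13 ± 0.20, limma adjusted p = 0.635) and S100a5 (0.13 ± 0.17, adjusted p = 0.584) did not pass. S100a10 changed by −3.98 ± 0.17 (adjusted p = 1.67e-06), S100a4 by −2.05 ± 0.27 (adjusted p = 0.000389) and S100a6 by −1.42 ± 0.17 (adjusted p = 0.000209), while S100a13 rose by 0.55 ± 0.08 (adjusted p = 0.000873).

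Genes next to the 10 genes on the chromosome, up to 3 tested protein-coding genes on each side, numbered 54, of which 6 rose and 16 fell, 11.1% and 29.6% beside 20.5% and 21% of all tested genes. Median centring of the arrays gave 11 and 10. Dennd2d beside Chil3 changed by −1.29 ± 0.09 (limma adjusted p = 1.39e-05), Dhodh beside Hp by −0.86 ± 0.07 (adjusted p = 2.66e-05), Pltp beside Mmp9 by −1.36 ± 0.11 (adjusted p = 2.76e-05) and Klhl18 beside Ngp by −1.38 ± 0.14 (adjusted p = 7.72e-05). Epm2aip1 beside Ltf changed by −1.27 ± 0.14 (adjusted p = 0.000126).

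The same fit gave counts for lists of other cells. B cell genes had high signal in all arrays, with list means of 13.34 to 13.45 in naive and 12.69 to 13.03 in GC arrays. Of 9 B cell genes 0 rose and 5 fell, among them Cr2 by 0.90. These are 0% and 55.6%, beside 20.5% and 21% of all tested genes. Of 7 GC B cell genes 6 rose and 0 fell, 85.7% and 0% beside 20.5% and 21% of all tested genes. Among 15 monocyte and macrophage genes 2 rose and 4 fell, 13.3% and 26.7% beside 20.5% and 21% of all tested genes. Of 8 T cell, 5 erythroid and 7 platelet genes 0 rose, beside 20.5% of all tested genes. In these lists 1, 2 and 3 fell, 12.5%, 40% and 42.9% beside 21% of all tested genes. At an unadjusted p under 0.05 in limma 0, 0 and 2 were higher, beside 24.6% of all tested genes. Among 8 eosinophil, basophil and mast cell genes 3 rose and 0 fell, 37.5% and 0% beside 20.5% and 21% of all tested genes. The 3 include Fcer1a, kept by the filter on low values only through its GC arrays, with 3.92, 3.47, 3.61 and 4.62 in naive arrays. Its call was lost in several settings, such as without naive replicate 1 (limma adjusted p = 0.0792). Mcpt8, a basophil protease, rose by 2.38 ± 0.66 (limma adjusted p = 0.0191), with overlapping groups. Prg2 rose by 0.94 ± 0.20 (limma adjusted p = 0.00487), with every GC array above every naive array. When naive replicates 2 and 4 were omitted, the adjusted p of Prg2 was 0.0571. Naive replicate 4 was the highest naive array in 12 of 15 monocyte and macrophage genes, 7 of 8 T cell genes and 5 of 5 erythroid genes, but in 0 of 9 B cell genes, beside 37.6% of all genes. It was also highest in 5 of 8 eosinophil, basophil and mast cell genes and 4 of 7 platelet genes. Of the granulocyte factors and receptors it was highest in 2 of 7, and of the GC B cell genes in 1 of 7. The excess of naive replicate 4 over the other naive arrays had a median of 1.87 in the 10 genes and 0.68 in the other neutrophil genes. The median was 0.76 in monocyte and macrophage genes, 0.71 in T cell genes and 1.04 in erythroid genes. For eosinophil, basophil and mast cell genes it was 0.62 and for platelet genes 0.30. Granulocyte factors and receptors had 0.004, GC B cell genes 0.08 and B cell genes 0.01, beside 0.09 over all genes. The part of other cells in these values was not tested.

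**Figure D5:**
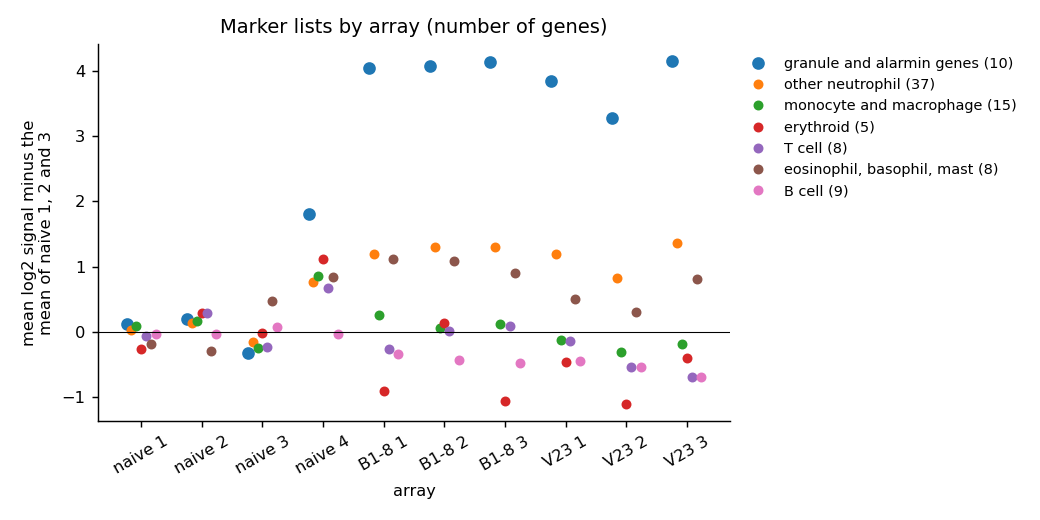
Mean log2 signal of each gene list minus its mean in naive replicates 1, 2 and 3 (vertical axis) in each array (horizontal axis), 1 colour per list with its number of genes in the key. Among the lists shown, naive replicate 4 is raised in all but the B cell list, and in GC arrays the granule and alarmin genes stand highest. The lists of granulocyte factors (median excess of naive replicate 4 0.004), platelet genes and GC B cell genes are not shown.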

How the data were processed

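Total RNA of 10 samples of sorted splenic B cells (naive, n = 4; GC B1-8, n = 3; GC V23, n = 3) was hybridised to 1 array each. The authors deposited log2 probe set signals in 1 table; the submitters' processing notes name GCRMA without a version. The 2% trimmed mean of the unlogged signals is 500 on every array, a form usual for another method (MAS5), so the background step stays unknown. The values were used as deposited. Arrays give no counts, and their number limits the precision: the median residual SD was 0.889 for genes with a mean log2 value under 6 and 0.118 above 10.

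Of 45101 probe sets 34958 have 1 symbol, 932 several and 9211 none in the platform annotation. Each of 18194 symbols was read by the brightest of its single-symbol probe sets, and 17204 with log2 above 4 on at least 3 arrays were tested. limma 3.58.1 (R 4.3.3) fitted 3 group means over all 10 arrays with eBayes and Benjamini-Hochberg adjustment (threshold 0.05, two-sided; 7 residual degrees of freedom, prior 1.46). The fit was tested on simulated data. Of 142 other listed genes 119 were tested. Groups and replicate numbers come from the labels; deviations of same-numbered samples correlated from −0.02 to 0.07, so replicates were not paired.

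The 10 genes and all gene lists were chosen with earlier results of these data known. The rule for genes to name took the 10 genes and up to 6 of each other list by smallest p for GC minus naive. It also took Mpo, Elane, Ly6g, Cxcr2, Csf3r, Retnlg and Lyz2, up to 6 called neighbours, and the 10 genes most like the group by correlation. Not every gene under this rule is named in the text. Ms4a3 and Cebpa fall under it, while Tlr4, Timp1, Chil4 and the genes listed by name in counts were added after their values were seen. Alternatives were another probe set rule, filter, floor, scaling, moderation, a replicate block and the omission of arrays.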

Additional observations from a re-analysis of the deposited data

Results flagged for a closer look

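Among 94 genes of the lists, 5 had a naive array far from the other 3, by the gap to the nearest array as a share of the range (critical value 0.829 for 4 samples); 6.18% of all tested genes passed it, and chance flags about 1 in 20 groups. Chil3 had a share of 0.843, with naive replicate 4 at 8.54 and the others from 6.22 to 6.59. Klf1, an erythroid factor, had 0.964 with naive replicate 4 at 6.68 against 5.63 to 5.66, and Cd5 of T cells had 0.915 with naive replicate 4 at 8.15 against 7.41 to 7.48. Itgb1, an integrin chain, had 0.9 with naive replicate 3 lowest at 9.60 against at least 9.96, and the platelet gene Ppbp had 0.899 with naive replicate 3 highest at 6.64 against 5.79 to 5.88.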

How the results depend on the processing

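For the 10 genes, GC minus naive stayed positive in all 180 values over 18 alternatives, from 1.83 to 5.55, and none of 190 values for B1-8 minus V23 passed limma's test (lowest adjusted p = 0.679). Omitting naive replicates 2 and 4 gave 3.79 for S100a8, 4 other neutrophil genes that fell in place of 7, and 7 cell type markers that fell in place of 16. With the mean of probe sets 1 partner gene rose in place of 2, and Mxd1 and Ager lost their call near 0 with the sign turned, at 0.004994 and 0.24 (limma adjusted p = 0.99 and 0.76). Neighbouring genes that rose numbered 11 after quantile normalization and 11 after median centring in place of 6, and those that fell 10 after median centring in place of 16. These scalings moved the median of all genes from 0.06 to 0.12 and 0.16. The cause of these changes was not tested. Of the other named genes' values, 1402 kept their call, 88 lost it and 20 gained it. Leaving out naive replicate 4 and V23 replicate 2 together, chosen after their values were seen, gave 25 other neutrophil genes that rose and 5 that fell. With the replicate block, 23 other neutrophil genes rose and 6 fell, and 3303 and 3126 of all genes in place of 3521 and 3619; same-numbered samples share only a number. Values below log2 4 carry little order.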
